A study of Mus musculus with 4 samples.

Results

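The colony stimulating factors and the cytokines and receptors of the interleukin 6 family were followed by 10 genes, Csf1, Csf2, Csf3, Il6, Il11, Lif, Clcf1, Lifr, Osmr and Il6st, out of 50090 gene names on the array. Every probe whose gene name in the files was 1 of these was taken, 18 of 61307 probes; the probes were matched by name, while the genes were picked with earlier results of these data known. The cells were C3H10T1/2, a mouse embryo fibroblast line that grows as a contact-inhibited monolayer and is used to score chemical transformation by its foci. Of 4 arrays, 2 held RNA of control cells cultured for 6 weeks. The other 2 held RNA of cells of the same line given 3-methylcholanthrene (3MC), a polycyclic aromatic hydrocarbon carcinogen, at 2.5 µg/ml for 2 days, then normal medium for 4 days, then the phorbol ester tumour promoter TPA at 100 ng/ml on repeated days for 2 weeks, and normal medium again for 4 weeks. The exposed samples are also labelled as cultured for 6 weeks, although the listed steps together run longer. The comparison of 3MC+TPA with control arrays addresses how expression in the exposed cultures compares with control weeks after the agents were removed. Part of the flasks was stained and scored for transformed foci and the rest gave the RNA. The labels do not say whether foci were picked, so the share of transformed cells behind the exposed RNA is unknown.

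Colony stimulating factors are secreted proteins that drive the growth and survival of myeloid cells: Csf1 acts on macrophages, Csf2 (GM-CSF) on granulocytes and macrophages, and Csf3 (G-CSF) on neutrophils. Cytokines of the interleukin 6 family signal through receptor complexes that share gp130, the product of Il6st. Gp130 pairs with itself for Il6 and Il11, with the LIF receptor (Lifr) for Lif and Clcf1, and with the oncostatin M receptor (Osmr) for oncostatin M, and activates JAK kinases and STAT3. Fibroblasts are known to make Csf1, Il6 and Lif, and raise Csf2, Csf3 and Il6 when stimulated by inflammatory signals.

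The labelled cell type was checked first. All 11 fibroblast markers were well above background on all 4 arrays, the sum of their signals lying between 10.21 and 10.51 in control and between 10.17 and 10.24 in 3MC+TPA arrays (log2, with the 75th percentile of each array set to 0, the scale of every level below). Pdgfra, Pdgfrb, Dcn and Lum of this list were lower in exposed cells and Thy1 was higher (limma adjusted p between 0.0024 and 0.047). Of 13 leukocyte and macrophage markers, 6 were on no array well above background, among them Ptprc, Emr1 and Itgam. The leukocyte sum lay between 2.00 and 2.38 in control and between 2.20 and 2.48 in exposed arrays, and of 7 tested members Aif1 was higher and none lower. The part of these markers in the results below was not tested. In bulk RNA, fewer cells of a type and less RNA per cell cannot be told apart.

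Each probe is a strand of 60 bases, and what it binds decides which transcript it reads. The first 30 bases are shown for the probes on which the results turn, for Csf2 because it has a single probe, for Lif because its probes share a sequence, and for Lifr because its 6 probes disagree in direction (all lower case, 5′ to 3′, as the scanner files give them).
Csf2: tctgaaaacgctgactcagcttggacagcg
Lif probe 1 and Lif probe 2: ccttgggtgacaaattcctctttgatgaat
Lifr probe 1: tgcactaaccagggataccaactgttacgt
Lifr probe 2: taaaaacttggaaatgtatccaggcctaac
Lifr probe 3: agaacaaaccaaatgactaaccaggtcacc
Lifr probe 4: tccatcaattccaggcaattcttgattcct
Lifr probe 5: gttaatcttttagacataaccctagaatat
Lifr probe 6: atttattttactttcagaaaggagagagag
The Lif probes are identical over all 60 bases, although the files assign them to different transcript variants (NM_001039537 and NM_008501), so they are repeat measurements of the same target. Lifr probe 2 is assigned to transcript variant 2 (NM_001113386) and the other 5 Lifr probes to NM_013584. Probes of a gene are numbered from the brightest.

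Csf1, Csf2 and Osmr were lower in 3MC+TPA cells, and no member passed as higher. Of 10 genes, 9 passed the filter on dim probes, read by the brightest probe of each gene, and 3 of the 9 passed the test, all lower (limma, Benjamini-Hochberg over 24977 gene names, adjusted p under 0.05). Csf2, in the counts by gene and by probe, passed the filter through the control arrays only, with exposed readings not well above background. Over all gene names tested 15.8% passed, 8.48% lower and 7.31% higher. The balance depends on the scaling of the arrays: without it, where the median of all gene names moved to 0.34, 3 member genes were higher (Il11, Clcf1 and Lifr) and 1 lower (Csf2). By probe, 4 of 17 tested were lower and none higher, against 15.5% of 32103 probes in either direction (8.12% lower, 7.37% higher); without scaling 4 were higher and 2 lower. The groups did not overlap on 14 of the 17 tested probes, 10 lower and 4 higher in exposed cells, beside 63.9% of all probes tested (31.5% lower, 32.4% higher). By gene name, 4 of 9 lay wholly lower and 3 wholly higher, beside 32.4% and 31.3% of all gene names (63.7% together). The labels do not tell whether the duplicate arrays hold RNA of independent flasks, and a p-value here sets a difference against the spread of duplicates that may be technical. The control arrays took the first positions of the slide that carried all 4 and the exposed arrays the next, so position and exposure cannot be told apart. The median log2 change of the 9 genes was -0.46, beside -0.014 over all gene names tested.

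**Figure D1:**
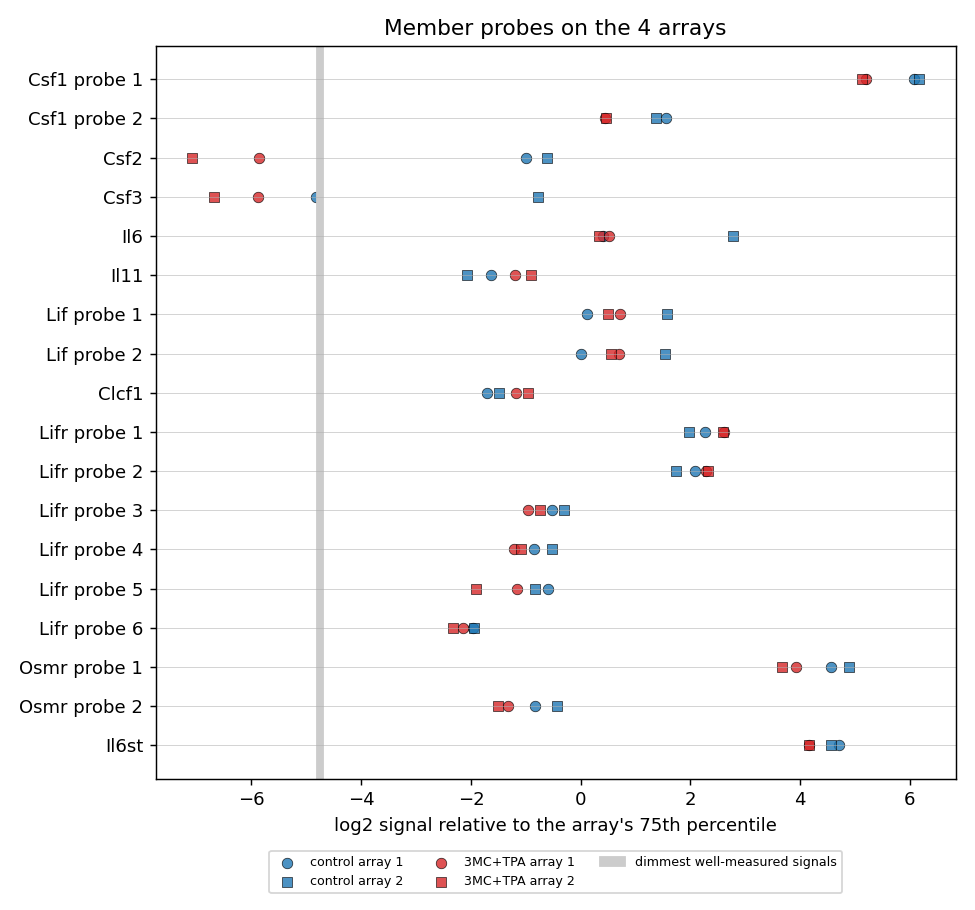
Level on the log2 scale, with each array's 75th percentile at 0 (horizontal axis), of all 18 member probes on each of 4 arrays, controls in blue and 3MC+TPA in red, with circles for array 1 and squares for array 2 of a group. The grey band spans the dimmest well-measured signals of the arrays, from -4.81 to -4.70, and both exposed Csf2 points lie to its left.

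Csf2 was measured in control cells alone. Its probe stood at -1.0 and -0.61 on the control arrays and at -5.87 and -7.08 on the 3MC+TPA arrays. Neither exposed value was well above background, and the control values were far above both. With the dimmest well-measured signals of the exposed arrays (-4.81 and -4.79) as limits, Csf2 was at least 16-fold lower on the deposited scale. Group means were -0.80 ± 0.27 in control and -6.48 ± 0.86 in exposed cells (SD, n = 2 each). The limma adjusted p of 0.0022 rests on exposed readings not well above background, so it says nothing of the size. The probe passed the filter through the control arrays only, so it could not be tested where all 4 arrays had to be well above background, and the size of the difference beyond the bound is not measured. With normexp background correction and an added offset, which compresses dim signals, the log2 change was -2.66, short of the bound.

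Csf1, which fibroblasts make constitutively, has 2 probes that the files assign to different transcript variants, and both were lower. Probe 1 stood at 6.08 and 6.17 in control and at 5.21 and 5.13 in exposed cells, a log2 change of -0.95 ± 0.15 (SE), or 1.94-fold lower (limma adjusted p = 0.018). Probe 2 stood at 1.55 and 1.38 in control and at 0.44 and 0.46 in exposed cells, 2.03-fold lower (adjusted p = 0.017). On either probe the groups did not overlap, and the changes of the probes differed by less than their standard errors. Without 3MC+TPA array 1 or array 2 neither probe passed (adjusted p between 0.080 and 0.098), and without control array 2 probe 1 did not (adjusted p = 0.060), nor did probe 1 without scaling between arrays (0.061). The change itself lay between -1.10 and -0.91 over both probes when an array was left out.

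Csf3 was not tested, since it was well above background on control array 2 alone. It stood at -4.83 and -0.77 on the control arrays and at -5.88 and -6.68 on the exposed arrays. The other 3 values were not well above background, so they have no order among themselves. Control array 1 lay under its dimmest well-measured signal (-4.70), so control array 2 was the higher control, by a gap whose size is not measured. No difference between the groups is measured.

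Among the ligands of the interleukin 6 family, none passed. Il6 stood at 0.40 and 2.77 on the control arrays and at 0.51 and 0.34 on the exposed arrays. Control array 2 was far above the other 3, which lay within a narrow range, so the groups overlapped. The log2 change was -1.16 ± 0.75 (SE; 95% interval -3.07 to 0.75; limma adjusted p = 0.34). It was -2.34 (adjusted p = 0.0034) against control array 2 alone and 0.02 (adjusted p = 0.97) against control array 1 alone, so that its size rests on the control array used. With 1 array of a group left out, here and below, the spread comes from the other group and the remaining array is assumed to vary like it, although the Il6 controls lay 2.36 apart.

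Lif, which holds embryonic stem cells in an undifferentiated state, behaved in the same manner. Probe 1 stood at 0.12 and 1.58 on the control arrays and at 0.72 and 0.49 on the exposed arrays, and probe 2 at 0.01 and 1.54 and at 0.70 and 0.55. The exposed values fell between the controls on both probes. The log2 changes were -0.24 ± 0.48 and -0.15 ± 0.50 (SE; adjusted p = 0.76 and 0.87), with 95% intervals of -1.47 to 0.98 and -1.42 to 1.13. Being identical in sequence, these probes show the precision of a spot: they differed by at most 0.11 on any array, while the control arrays lay 1.45 and 1.53 apart. Over 692 pairs of probes with the same sequence that were well above background on all arrays, the median difference within an array was 0.06 and the 95th percentile 0.31. These values cover the noise of spots within an array and not the variation between arrays.

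Il11 and Clcf1 stood higher in exposed cells without passing the test. Il11, a gp130 cytokine that fibroblasts make in fibrosis, stood at -1.63 and -2.07 in control and at -1.19 and -0.91 in exposed cells (log2 change 0.80 ± 0.22, SE; adjusted p = 0.072; 95% interval 0.23 to 1.36). Clcf1, a ligand of the ciliary neurotrophic factor receptor, stood at -1.70 and -1.49 in control and at -1.17 and -0.96 in exposed cells (0.53 ± 0.17, SE; adjusted p = 0.10; 95% interval 0.09 to 0.97). For both genes the groups did not overlap. Without scaling between arrays both passed (0.018 and 0.033). Il11 also passed where all 4 arrays had to be well above background (0.049) and, by probe, without control array 1 (0.048).

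**Figure D2:**
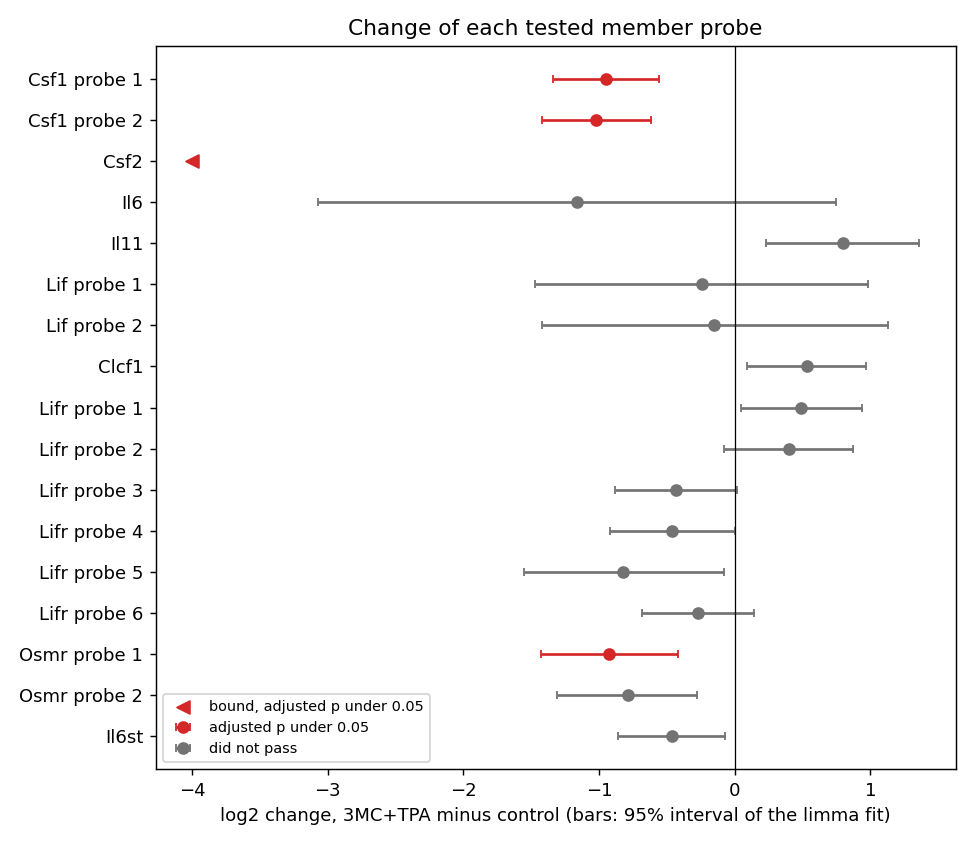
Log2 change of 3MC+TPA minus control (horizontal axis) for the 17 tested member probes, with bars for the 95% interval of the limma fit over 2 arrays per group, in red where the adjusted p was under 0.05. Csf2 is drawn as a triangle at its bound of 4 on the log2 scale, with no interval, since its exposed signals were not well above background. Both Csf1 probes and Osmr probe 1 lie near -1, and the intervals of Il6 and Lif reach across 0.

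Of the 3 member receptors Osmr passed and Lifr and Il6st did not. Osmr, the subunit that recognises oncostatin M, was lower: probe 1 stood at 4.56 and 4.89 in control and at 3.93 and 3.67 in exposed cells, or 1.90-fold lower (log2 change -0.93 ± 0.20, SE; limma adjusted p = 0.038). Probe 2 stood at -0.83 and -0.43 in control and at -1.33 and -1.51 in exposed cells, a change of similar size that did not pass (-0.79 ± 0.20, SE; adjusted p = 0.060). The groups did not overlap on either probe. The gene's call ended without control array 2, without 3MC+TPA array 1 and without 3MC+TPA array 2 (adjusted p = 0.12, 0.098 and 0.16), and under quantile normalization (0.051), while its log2 change lay between -1.09 and -0.57 over all alternatives.

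Il6st, the shared gp130 chain, stood at 4.71 and 4.56 in control and at 4.17 and 4.17 in exposed cells. Its change of -0.46 ± 0.16 (SE) was smaller than those of Csf1 and Osmr and did not pass (adjusted p = 0.11; 95% interval -0.86 to -0.07).

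The 6 Lifr probes did not give one direction. Probe 1 stood at 2.26 and 1.97 in control and at 2.62 and 2.60 in exposed cells, and probe 2, of transcript variant 2, at 2.09 and 1.73 and at 2.29 and 2.32. These brightest probes thus stood higher in exposed cells, by 0.49 ± 0.17 and 0.40 ± 0.19 (SE; adjusted p = 0.12 and 0.21). Without scaling both passed as higher (0.85 and 0.75; adjusted p = 0.023 and 0.036). The 4 dimmer probes stood lower, with log2 changes between -0.82 and -0.27 and adjusted p between 0.12 and 0.30. Probe 5 showed the widest of these differences, at -0.60 and -0.84 in control and -1.16 and -1.91 in exposed cells. On all 6 probes the groups did not overlap. Without scaling, probes 3 to 6 differed by -0.08, -0.10, -0.46 and 0.09, none passing, so the sign of probe 6 turned. Within each array, the mean of probes 1 and 2 minus the mean of the other 4 was 3.16 and 2.75 in control and 3.82 and 3.98 in exposed cells; this grouping was made after the values were seen and was not tested. Mouse Lifr is known to give a membrane receptor and a soluble form from alternative transcripts, and the files do not say which form each probe reads. Averaged over all its probes, Lifr differed by -0.18 (adjusted p = 0.44), opposite in sign to its brightest probe.

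Il6 and Lif stood apart between the control arrays, by 2.36 and 1.45 (probe 1), both higher on control array 2. Gaps as large were found in 0.293% and 1.29% of tested probes. Over all probes tested the median gap was 0.20 and the median of control array 2 minus array 1 was -0.02. The 2 exposed arrays differed by 0.17 and 0.23 for the same probes. Csf3 was also higher on control array 2, by a size that is not measured. Leaving aside Csf3 and the second Lif probe (1.53), the other 14 member probes differed by at most 0.44 between the control arrays.

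**Figure D3:**
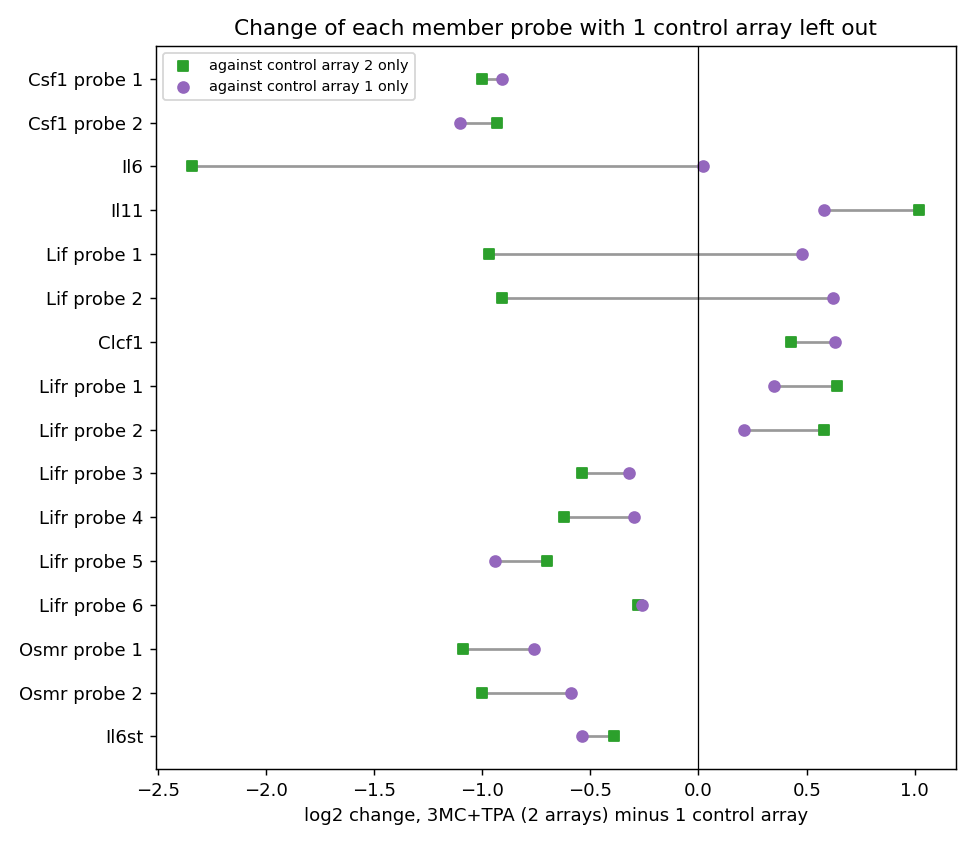
Log2 change of the 2 3MC+TPA arrays minus a single control array (horizontal axis) for each member probe well above background on all 4 arrays, with control array 1 left out (green squares) and control array 2 left out (purple circles). Il6 moves from -2.34 to 0.02 and Lif probe 1 from -0.97 to 0.48, while both Csf1 probes stay between -1.10 and -0.91.

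Promoter sequence of Il6 and Lif is shown because both ligands stood higher on control array 2 than on control array 1, a choice made after the values were seen. RefSeq promoters of assembly GRCm38.p6 matched 8 of the 10 members, and the 250 bases before each start were read. Capitals mark matches to an AP-1 element (TGANTCA, the site through which phorbol esters are known to act) or an NF-kB element (GGGA, any 2 bases, then TTCC), searched on both strands.
Il6, chr5:30012864-30013113, plus strand: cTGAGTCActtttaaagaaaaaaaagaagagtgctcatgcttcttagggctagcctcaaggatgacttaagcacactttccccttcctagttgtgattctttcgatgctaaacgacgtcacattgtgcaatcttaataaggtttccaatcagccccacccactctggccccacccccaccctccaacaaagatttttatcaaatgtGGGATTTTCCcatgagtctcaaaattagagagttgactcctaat
Lif, chr11:4257318-4257567, plus strand: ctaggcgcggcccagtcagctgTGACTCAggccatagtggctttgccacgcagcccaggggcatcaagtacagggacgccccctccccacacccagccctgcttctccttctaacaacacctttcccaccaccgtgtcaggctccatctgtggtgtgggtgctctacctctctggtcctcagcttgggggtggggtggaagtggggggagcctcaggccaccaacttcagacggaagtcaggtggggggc
The AP-1 match begins 249 bases before the Il6 start and 228 before the Lif start, and the NF-kB match 44 bases before the Il6 start. The 8 genes had 10 windows, of which 3 (Il6, Lif and 1 of Il11) held the AP-1 letters and 2 (Il6 and Csf1) the NF-kB letters, beside 6.75% and 1.21% of all 32851 promoter windows of this length. Neither the exact letters of a cAMP response element (TGACGTCA, in 1.55% of windows) nor those of a STAT element (TTCNNNGAA, in 7.02%) were found in any of the 10. Near matches were not searched for, such as cgacgtca in the Il6 window, which differs from the cAMP response element in its first base. These matches describe letters and were not tied to any binding measured here. Il11 and Csf1 held matches as well. For control array 2 minus array 1, Il11 differed by -0.44 and Csf1 probes 1 and 2 by 0.08 and -0.17. Whether the matches bear on the gaps between control arrays was not tested.

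The other genes of the pathway moved in both directions. Of 62 tested, on lists drawn up by role, 8 were higher and 11 lower, beside 7.31% and 8.48% of all gene names tested. Their median log2 change was -0.06. Without scaling 17 were higher and 7 lower. Among 5 other ligands tested, 2 were higher and 1 lower. Il34, which shares the receptor of Csf1, stood at -2.12 and -3.00 in control and at -0.85 and -0.72 in exposed cells, 3.42-fold higher (log2 change 1.78 ± 0.31, SE; limma adjusted p = 0.024), opposite in direction to Csf1. Ctf1, cardiotrophin 1, was 1.69-fold higher (adjusted p = 0.040). The call of Il34 ended without either 3MC+TPA array (0.10 and 0.12), and that of Ctf1 without any 1 of the 4 arrays (0.070 to 0.16). Osm, the ligand of Osmr, was not well above background on any array.

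The receptors of the colony stimulating factors were dim. Csf1r, with 1 of 3 probes tested, stood at -4.43 and -3.38 in control and at -6.44 and -4.71 in exposed cells. Its log2 change was -1.67 ± 0.65 (SE, limma adjusted p = 0.15). The value of -6.44 was not well above background, so the size of this change is not measured. Csf1r passed the filter through the control arrays only, and was not tested where all 4 arrays had to be well above background. It passed as lower with normexp correction (-0.62, limma adjusted p = 0.044) and with the replicate block (0.017). Both calls used the array with the reading not well above background. Csf2ra and Csf3r were not well above background on any array. Csf2rb stood near -2.7 in control and differed by 0.35 ± 0.20 (SE; adjusted p = 0.27). Of the receptors of the interleukin 6 family, Il6ra differed by 0.49 ± 0.17 and Il11ra1 by -0.61 ± 0.17 (SE; adjusted p = 0.11 and 0.075). Cntfr, the receptor chain for ciliary neurotrophic factor, was not well above background on either exposed array. On the deposited scale it was at least 2.23-fold lower. It was the 1 called member of 6 receptors tested (limma adjusted p = 0.037), a p that rests on exposed readings not well above background. The call ended without control array 1 or either 3MC+TPA array. Cntfr had passed the filter through the control arrays only. Its log2 change was -0.61 with normexp correction and -1.02 without control array 1, both short of the bound of 1.16 on that scale.

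Kinases and STATs were lower in part. Of 10 tested kinases, STATs and adaptors, 3 were lower and 1 higher, beside 8.48% and 7.31% of all gene names tested. Jak2, the kinase of the GM-CSF receptor, stood at 2.41 and 3.16 in control and at 1.39 and 1.02 in exposed cells, 2.98-fold lower (adjusted p = 0.028), with 1 of 2 probes called. Stat5a, a STAT downstream of GM-CSF, was 1.72-fold lower (adjusted p = 0.046). Gab1, a docking protein, was 2.10-fold higher (adjusted p = 0.023). The calls of Jak2 and Gab1 ended without control array 2 and without either 3MC+TPA array (0.053 to 0.14). Stat3 itself stood at 4.90 and 5.24 in control and at 4.95 and 5.05 in exposed cells (-0.07 ± 0.18, SE; adjusted p = 0.84), a sign that turned under quantile normalization, without scaling and without control array 2. Of 9 inhibitors, Ptpn6, the phosphatase SHP-1, was 5.04-fold higher (adjusted p = 0.0032; 1 of 2 probes called, the log2 change of the other being 0.18 with adjusted p = 0.47) and Socs1 1.57-fold lower (adjusted p = 0.047). Ptpn6 was dim in control, at -4.37 and -4.40, and its log2 change of 2.33 became 0.98 with normexp correction and 1.26 as the mean of its probes. Its call held in both and without each array in turn, and that of Socs1 ended without any 1 of the 4 (0.10 to 0.17). Socs3, the feedback inhibitor of gp130, stood at 5.27 and 5.69 in control and at 5.28 and 5.71 in exposed cells (0.01 ± 0.24, SE; adjusted p = 0.98), a sign that turned without control array 1 and without 3MC+TPA array 2.

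The genes listed as STAT3 targets held the largest differences of the pathway. Of 18 tested, 5 were lower and 3 higher, beside 8.48% and 7.31% of all gene names tested. Their median was -0.45. Saa3, Hp and Lcn2 differed most. Saa3, serum amyloid A3, stood at 3.36 and 3.84 in control and at -1.40 and -1.68 in exposed cells, or 35.1-fold lower (log2 change -5.13 ± 0.23, SE; limma adjusted p = 0.00058). Hp, haptoglobin, stood at 2.86 and 3.75 in control and at -1.15 and -0.86 in exposed cells, 19.8-fold lower (adjusted p = 0.0023). Lcn2, lipocalin 2, which binds bacterial iron carriers, stood at 2.90 and 4.06 in control and at -0.69 and 0.08 in exposed cells, 13.8-fold lower (adjusted p = 0.0089). On these 3 genes the exposed arrays lay far below both controls, and control array 2 was the higher control. The calls of Saa3 and Hp held without each array in turn, and that of Lcn2 ended without 3MC+TPA array 1 (adjusted p = 0.055). Mcl1, Il4ra and Junb of the list were higher and Timp1 and Cebpd lower, so the list had no single direction. None of the counts by role was compared with other lists.

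**Figure D4:**
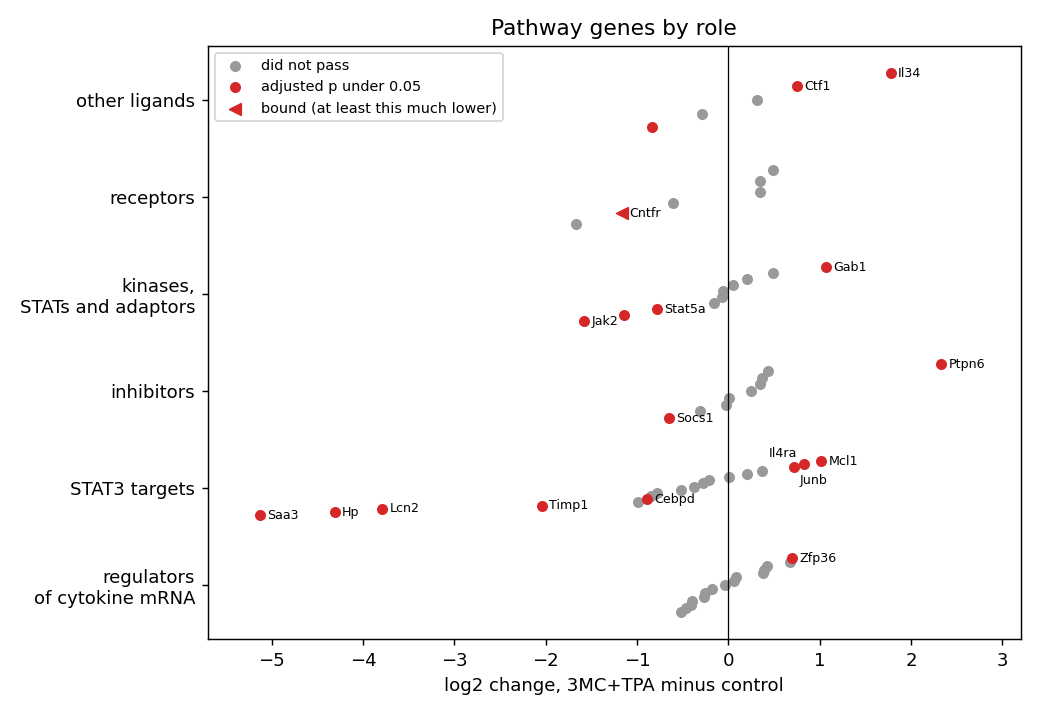
Log2 change of 3MC+TPA minus control (horizontal axis) for each tested pathway gene, 1 point per gene, in rows by role, in red where the adjusted p was under 0.05, with the names of genes described in the text. Cntfr is drawn as a triangle at its bound. Saa3, Hp and Lcn2 lie at -5.13, -4.31 and -3.79, and Ptpn6 at 2.33 is the highest point.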

How the data were processed

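RNA of 2 control and 2 3MC+TPA-exposed samples was hybridised to 1-colour (Cy3) arrays. Agilent's Feature Extraction software gave the intensity of each spot, per the file headers. The authors' deposited table holds log2 values, which match log2 of the scanner files' processed intensity, less its 75th percentile on that array, within 0.02 for at least 61302 of 61307 probes. Their column medians were between -4.39 and -4.29. These were the main values, with spots flagged as outliers (20 to 68 an array) left out. Between 32125 and 32512 of 61657 spots were well above background, and none was saturated.

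A probe, or a gene name read by its brightest probe, was tested when well above background on both arrays of a group. limma 3.58.1 in R 4.3.3 (lmFit, eBayes, 2-sided, no covariates, Benjamini-Hochberg) gave changes and standard errors. The fit was tested on simulated data. Symbols are those of the files. Pathway genes named are the up to 3 called genes with the largest change per role list, and 9 direct partners; some genes the rule picks are not reported here; Stat5a, Mcl1, Il4ra, Junb, Timp1, Cebpd and the markers were named to complete counts. The members and lists were chosen with earlier results of these data known.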

Additional observations from a re-analysis of the deposited data

How the results depend on the processing

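A total of 17 alternatives were run (15 at the level of probes), and no slide block could be run because all arrays lie on 1 slide. Of the 3 member genes called, 1 remained with no filter on dim probes, and 0 by the methods' t-test with Benjamini-Hochberg adjustment (4 at an unadjusted 0.05). Leaving out an array gave 1 to 4. Member probes called fell from 4 to 1 with no filter and to 0 by the adjusted methods' t-test, and were 1 to 7 with an array left out. Pathway genes called fell from 19 to 3 and 0 in these settings, and were 3 to 13 with an array left out. Over all gene names 3943 were called, 6725 without scaling between arrays, 913 with no filter, 13 by the adjusted methods' t-test, 1156 (without 3MC+TPA array 2) to 3351 with an array left out. Without scaling 79.1% of the called were higher, against 46.3%. Signs turned for Lif (0.11 without scaling; -0.97 to 0.48 with an array left out), Il6 (-2.34 to 0.02 with an array left out), Lifr (-0.18 as the mean of its probes), Stat3 (0.29 without scaling, 0.05 under quantile normalization; -0.24 to 0.10 with an array left out) and Socs3 (-0.20 to 0.23 with an array left out). Where these turned with an array left out, the construction shows that array's part; the cause of the others was not tested. The call of Csf1 ended in 6 of 17 alternatives and that of Osmr in 9 of 17. That of Csf2 ended only in the adjusted methods' t-test among 16. All 16 used exposed Csf2 readings not well above background. The setting with all 4 arrays well above background left Csf2 out, so this count does not measure how firm its call is. Over the tested gene names, deviations of same-numbered arrays from their group means were not correlated (0.00), which cannot settle whether the arrays were paired. With the replicate block 2 member genes, 14 pathway genes, 3 member probes and 3616 gene names were called, Osmr being lost (limma adjusted p = 0.059).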

Other observations

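Genes that control the transcription of cytokines or the decay of their messages were read as a further list. Of 15 tested regulators 1 was higher and none lower, beside 7.31% and 8.48% of all gene names tested. Their median log2 change was -0.03. The higher gene was Zfp36, which encodes tristetraprolin, a protein known to bind AU-rich cytokine messages and speed their decay. It stood at 3.26 and 3.34 in control and at 4.08 and 3.92 in exposed cells, 1.62-fold higher (limma adjusted p = 0.043), and both of its probes were called. Its call ended in 7 of 17 alternatives, among them the omission of any 1 of the 4 arrays (adjusted p between 0.11 and 0.16). The NF-kB subunit genes Nfkb1, Nfkb2, Rela and Relb, named after the values were seen, differed by -0.26, -0.40, 0.38 and -0.03, and none passed.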
